A study of Mus musculus with 5 samples.

Results

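The collagen genes of the mouse heart were compared between animals fed fat and sucrose in excess and animals fed standard chow, all of which had received intravenous iron. The members were the protein-coding genes whose symbol has the form Col, a type number, a and a chain number, and 44 of the 49315 genes in the count tables met this rule. They fell into 11 fibrillar, 6 basement membrane (type IV), 6 beaded filament (type VI) and 21 other collagens, the last made up of 9 FACIT, 4 transmembrane, 3 short-chain, 2 multiplexin and 3 anchoring or unclassed genes. The series held 5 libraries of polyadenylated RNA from whole hearts of mixed cell types, perfused with saline and frozen. The HFHS-Fe group (3 libraries) came from mice kept for 18 weeks on the high-fat, high-sucrose diet, and the chow-Fe group (2 libraries) from mice kept on standard chow for the same time. Both groups were given 1 dose of iron dextran into a vein and were harvested 48 hours later, so every library carries the iron and none shows the diet without it. The sources used here give no strain, sex or age. The title of the series places the comparison in a study of iron injury to the heart in cardiometabolic disease.

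Collagens are trimeric proteins of the extracellular matrix whose chains wind into a triple helix, and the class of a collagen is set by the structure its trimers build. Types I and III form the fibrils that bear load between cardiomyocytes, with type V inside the fibril, and in the heart they are made mostly by fibroblasts. Type IV chains form the sheet-like network of basement membranes around cardiomyocytes and vessels, type VI chains form beaded filaments at the cell surface, and the FACIT collagens sit on the surface of fibrils.

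The libraries held 16546113, 14362766 and 15076251 counts on genes in HFHS-Fe hearts, against 17774735 and 17331356 in chow-Fe hearts. Collagens took 0.144%, 0.131% and 0.136% of all counts in HFHS-Fe libraries, against 0.157% and 0.148% in chow-Fe libraries, and the groups did not overlap. Mitochondrial genes took 32.9% to 33.8% of the counts in HFHS-Fe and 30.3% to 31.8% in chow-Fe libraries. Of the counts on other genes, collagens took 0.218%, 0.196% and 0.202% in HFHS-Fe libraries and 0.230% and 0.212% in chow-Fe libraries, which overlap, so the separation depends on the denominator. Levels are given as counts per 1000000 counts (CPM) after scaling the library sizes by edgeR's TMM factors, and differences as log2 fold changes, HFHS-Fe minus chow-Fe, with an approximate standard error (SE). Sums over marker lists and the limit of detection given below are instead CPM of the total counts, without the TMM factors. Whether such sums overlap between the groups can depend on this scaling. Only the labels make these separate samples, with no animal named, so p-values measure the spread between these libraries. In whole tissue, fewer cells of a type and less RNA per cell cannot be told apart.

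Of the 44 collagens, 29 averaged at least 1 CPM in either group and 31 held enough counts to be tested. The 13 untested genes were low in both diets. Col9a1 and Col6a4 had 0 counts in all 5 libraries, and Col2a1, Col10a1, Col11a1, Col19a1 and Col24a1 had at most 2 counts in any library. For each library 3 counts, the limit that a count of 0 allows, came to 0.181, 0.209 and 0.199 CPM in HFHS-Fe hearts and 0.169 and 0.173 CPM in chow-Fe hearts. This limit is on total counts, without the TMM factors, and covers counting error only. The other untested genes, Col8a2, Col9a2, Col9a3, Col17a1, Col26a1 and Col6a5, had between 0 and 15 counts. Of the chains known from cartilage, Col2a1, Col9a1, Col10a1 and Col11a1 were thus not detectable above this limit, while Col9a2 reached 9 counts, Col9a3 15 counts and Col11a2 60 counts in a library. The list of 8 cartilage, bone and valve markers summed to 2.99 to 3.25 CPM in HFHS-Fe hearts and 3.71 to 3.87 CPM in chow-Fe hearts, with Matn3, Bglap and Ibsp at 0 and 0 of the 2 tested passing edgeR's test (0 at an unadjusted p under 0.05, 0 with DESeq2).

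Between the diets, 9 of the 31 tested collagens passed edgeR's quasi-likelihood test at an adjusted p under 0.05: 5 were lower and 4 higher in HFHS-Fe hearts. That is 29.0% of the tested collagens, against 38.1% of the 14221 genes tested (5417 genes), a share no larger than the background. Across all tested genes 18.7% were lower and 19.4% higher. The groups did not overlap in 14 of the 31 collagens (7 lower, 7 higher), against 58.5% of all genes. The median log2 fold change was 0.10 for the 31 collagens and -0.01 for all genes. The classes divided: of the 8 tested fibrillar collagens 5 fell and 1 rose (median -0.28), of 6 type IV chains 2 rose (median 0.12), of 4 type VI chains 1 rose (median 0.09), and of 13 other collagens 0 passed (median 0.13). DESeq2 called 3 lower and 3 higher collagens.

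**Figure D1:**
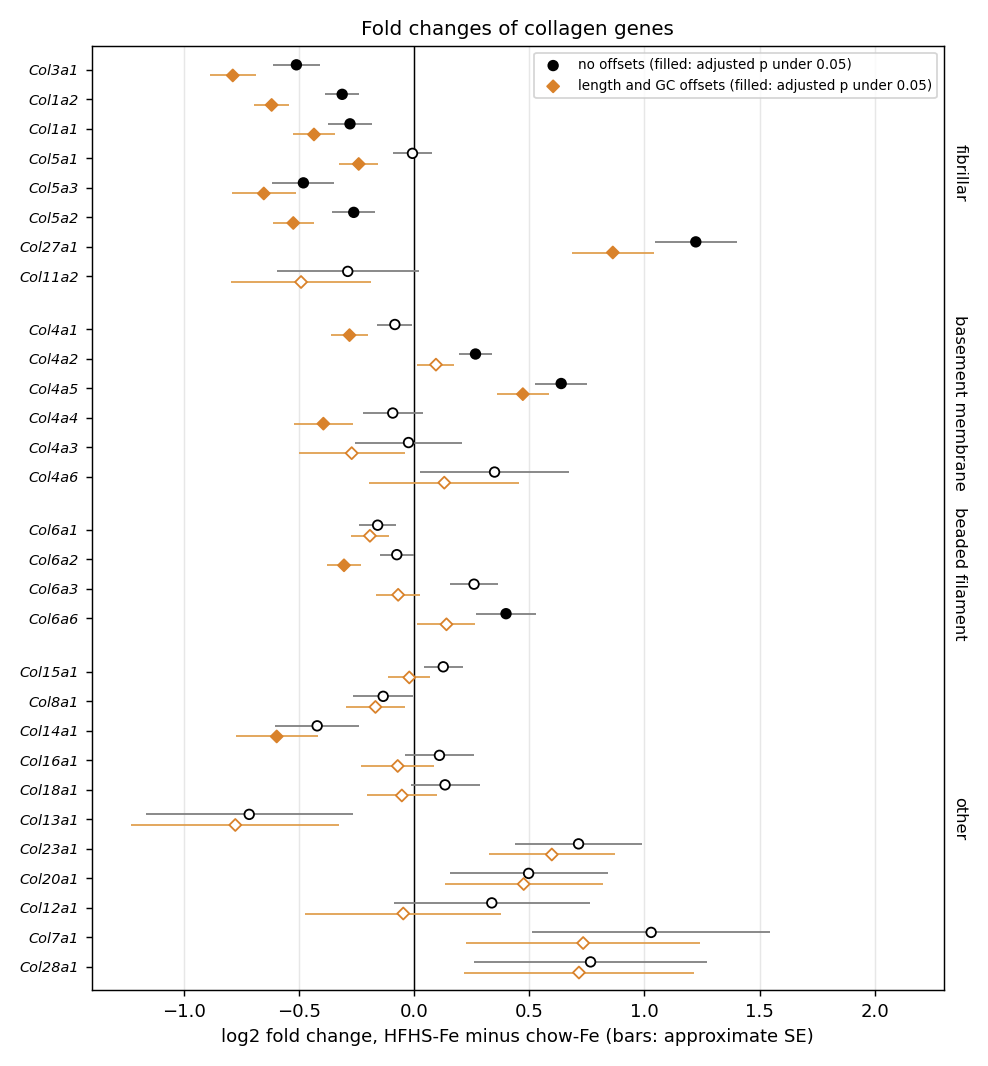
Log2 fold change (HFHS-Fe minus chow-Fe) of the collagens with at least 1 CPM in a group, ordered by class, without (circles) and with (diamonds) a correction for gene length and GC content; bars are approximate SEs and filled symbols have an adjusted p under 0.05. Col3a1, Col1a2, Col1a1, Col5a2 and Col5a3 lie left of 0, Col27a1 and Col4a5 right of it, and with the correction the symbols mostly lie further left.

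Among the fibrillar collagens, the chains of types I and III and a pair of type V chains fell in HFHS-Fe hearts, by 1.20-fold to 1.43-fold. Col3a1 (chromosome 1, 45311538 to 45349706, GRCm38), the only chain of type III collagen, the fine fibril of elastic tissue and vessel walls, had 161.9, 133.8 and 131.6 CPM in HFHS-Fe hearts, against 223.9 and 182.3 CPM in chow-Fe hearts. Every HFHS-Fe library was below both chow-Fe libraries. The log2 fold change was -0.51 (SE 0.102, adjusted p = 0.00129), a level 1.43-fold lower. Col1a2 (chromosome 6, 4504814 to 4541544), the alpha 2 chain of type I collagen, the main fibril-forming collagen, had 81.1, 87.9 and 85.4 CPM in HFHS-Fe hearts and 108.3 and 102.2 CPM in chow-Fe hearts. It was 1.24-fold lower without overlap (log2 fold change -0.31, SE 0.0749, adjusted p = 0.00452). The calls of these genes remained when any library was left out, with adjusted p of at most 0.0151 for Col3a1 and 0.0309 for Col1a2 over all alternatives.

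The promoters of Col1a2 and Col3a1 are shown because these were the fibrillar genes that fell under every alternative. Each window holds 300 bases around the RefSeq start on GRCm38.p6, most of them upstream, plus strand, at chr6:4505368-4505667 for Col1a2 and chr1:45311288-45311587 for Col3a1. Capitals mark CCAAT and GGGCGG on either strand (ATTGG and CCGCCC on the other), the letters of the CCAAT box and of the GC box.
Col1a2 promoter: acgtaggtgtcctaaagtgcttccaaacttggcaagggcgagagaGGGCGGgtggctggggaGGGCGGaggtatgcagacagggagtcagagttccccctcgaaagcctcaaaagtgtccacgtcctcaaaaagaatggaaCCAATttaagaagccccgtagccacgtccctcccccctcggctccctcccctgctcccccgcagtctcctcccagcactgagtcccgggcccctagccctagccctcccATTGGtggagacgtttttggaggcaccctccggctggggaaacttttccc
Col3a1 promoter: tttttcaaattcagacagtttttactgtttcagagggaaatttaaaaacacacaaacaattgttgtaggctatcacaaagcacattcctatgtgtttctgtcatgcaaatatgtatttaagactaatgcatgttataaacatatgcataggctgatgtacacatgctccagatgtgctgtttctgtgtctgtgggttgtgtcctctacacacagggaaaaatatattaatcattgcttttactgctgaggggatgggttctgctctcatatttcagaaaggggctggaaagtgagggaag
Col1a2 held 2 CCAAT and 2 GGGCGG, and Col3a1 held neither, but a single TTATAA (not capitalised), which reads TATAA on both strands. Of 32851 promoters of the same length 37.4% held CCAAT, 35.7% GGGCGG and 24.9% TATAA on either strand. Among the 35 collagens with an entry, 13 held CCAAT (37.1%), 22 held GGGCGG (62.9%) and 7 held TATAA. A collagen was counted once if any of its windows held the letters, while the shares of all promoters are per window. These matches describe letters and no factor was measured.

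Col1a1 (chromosome 11, 94936224 to 94953042), the alpha 1 chain of type I collagen, had 54.3, 46.4 and 54.1 CPM in HFHS-Fe hearts, against 58.1 and 67.2 CPM in chow-Fe hearts. The groups stood apart by a small margin, and the level was 1.21-fold lower (log2 fold change -0.28, SE 0.0945, adjusted p = 0.0317). The adjusted p was 0.0504 without HFHS-Fe replicate 1, 0.154 without HFHS-Fe replicate 2, 0.245 without chow-Fe replicate 2 and 0.0515 with DESeq2. The ratio of Col1a1 to Col1a2, each per kilobase of exon, was 1.27, 0.998 and 1.20 in HFHS-Fe libraries and 1.02 and 1.245 in chow-Fe libraries, and overlapped.

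Type V collagen sets the diameter of fibrils from inside them. Col5a2 (chromosome 1, 45374321 to 45503282) had 27.1, 25.1 and 25.5 CPM in HFHS-Fe hearts and 32.1 and 30.1 CPM in chow-Fe hearts, lower in every HFHS-Fe library (log2 fold change -0.26, SE 0.0925, adjusted p = 0.0379). Leaving out any library raised that p above the threshold (0.0501 to 0.193). Col5a3 (chromosome 9, 20770050 to 20815067), a less widespread type V chain, had 26.4, 21.7 and 20.7 CPM in HFHS-Fe hearts and 27.2 and 36.9 CPM in chow-Fe hearts. HFHS-Fe replicate 1 came close to chow-Fe replicate 1, and the log2 fold change was -0.48 (SE 0.134, adjusted p = 0.0115), with an adjusted p of 0.0521 without HFHS-Fe replicate 2 and 0.195 without chow-Fe replicate 2. Col5a1, the chain that most type V trimers contain, had 44.9, 40.2 and 42.8 CPM in HFHS-Fe hearts and 41.9 and 43.8 CPM in chow-Fe hearts, with overlap (log2 fold change -0.01, adjusted p = 0.959). The ratio of Col5a1 to Col5a2 per kilobase of exon was 1.87, 1.81 and 1.89 in HFHS-Fe libraries, above 1.47 and 1.65 in chow-Fe libraries. Col11a2, a chain of the cartilage fibril, had 1.51 to 2.70 CPM in HFHS-Fe hearts and 2.17 and 3.33 CPM in chow-Fe hearts (log2 fold change -0.29, adjusted p = 0.5005). Without chow-Fe replicate 2 its log2 fold change was 0.05.

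Col27a1 (chromosome 4, 63214004 to 63334991), a fibrillar collagen best known from growing cartilage, went the other way. It had 7.99, 9.12 and 7.91 CPM in HFHS-Fe hearts, from 128, 127 and 117 counts, against 3.52 and 3.61 CPM from 65 and 65 counts in chow-Fe hearts. The lowest HFHS-Fe library was above both chow-Fe libraries, and the level was 2.33-fold higher (log2 fold change 1.22, SE 0.177, adjusted p = 0.000102). The adjusted p was at most 0.00235 over the alternatives. Its promoter (chr4:63215162-63215461, GRCm38.p6, plus strand) is shown as that of the collagen with the largest rise among those that passed, with capitals as above.
Col27a1 promoter: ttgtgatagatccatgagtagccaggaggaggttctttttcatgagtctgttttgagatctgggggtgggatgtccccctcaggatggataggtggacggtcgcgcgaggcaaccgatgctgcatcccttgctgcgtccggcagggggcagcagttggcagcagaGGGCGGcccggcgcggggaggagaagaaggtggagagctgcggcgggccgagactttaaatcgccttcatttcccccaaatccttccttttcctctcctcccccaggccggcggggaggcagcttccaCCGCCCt
It held 2 GGGCGG and neither CCAAT nor TATAA.

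**Figure D2:**
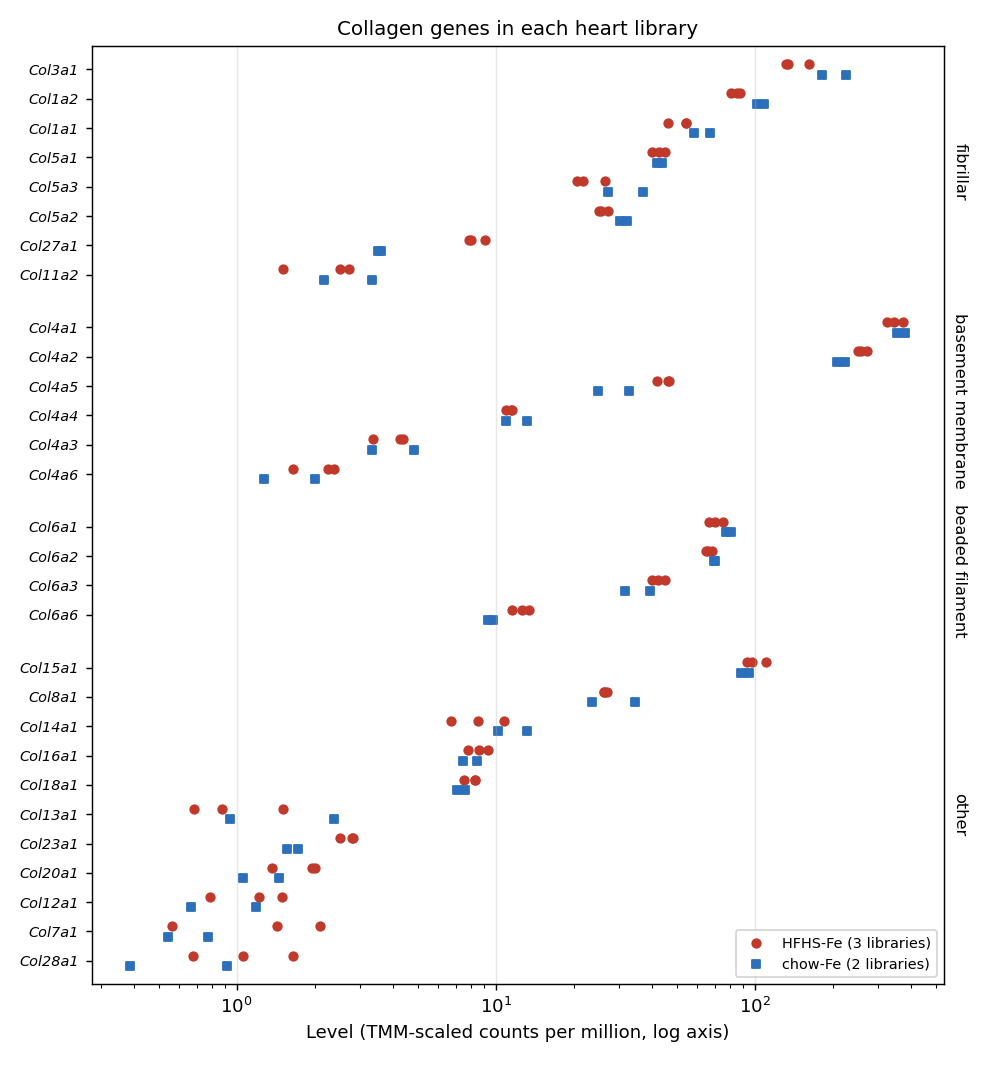
CPM of each library, on a log axis, for the collagens with at least 1 CPM in a group, one row per gene and ordered by class. Circles are the 3 HFHS-Fe libraries and squares, just beneath them, the 2 chow-Fe libraries. All 3 circles lie left of both squares for Col3a1 and Col1a2, and right of them for Col27a1 and Col4a5.

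Among the type IV chains, Col4a5 and Col4a2 rose in HFHS-Fe hearts and Col4a1 did not pass the test. Col4a1 and Col4a2 together make the network of nearly every basement membrane, with more of the alpha 1 chain in the trimer. Col4a1 (chromosome 8, 11198423 to 11312826) had 372.9, 324.7 and 343.1 CPM in HFHS-Fe hearts, against 380.5 and 354.8 CPM in chow-Fe hearts, and the groups overlapped (log2 fold change -0.08, SE 0.076, adjusted p = 0.420). Col4a2 (chromosome 8, 11312805 to 11449287) had 270.3, 250.7 and 257.9 CPM in HFHS-Fe hearts and 223.4 and 208.3 CPM in chow-Fe hearts. Its level was 1.20-fold higher without overlap (log2 fold change 0.27, SE 0.0719, adjusted p = 0.00947). The adjusted p was 0.0535 without HFHS-Fe replicate 1, 0.0517 without chow-Fe replicate 2 and 0.408 with the length and GC correction described below.

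The ratio of Col4a1 to Col4a2, each per kilobase of exon, was 1.22, 1.15 and 1.18 in HFHS-Fe libraries, against 1.51 and 1.51 in chow-Fe libraries. The chow-Fe ratios were nearly equal and above every HFHS-Fe ratio. This ratio, like the others given here, was chosen after its values were seen and is a description with no test. None of the ratios was corrected for the length trend described below. The genes lie head to head on opposite strands and share 22 bases of exon, and the sources used here do not say whether the authors counted by strand. The promoter windows of the pair overlap by 78 bases, and the Col4a1 window (chr8:11312777-11313076, GRCm38.p6, minus strand, written in the direction of Col4a1) is shown for this shared start.
Col4a1 promoter: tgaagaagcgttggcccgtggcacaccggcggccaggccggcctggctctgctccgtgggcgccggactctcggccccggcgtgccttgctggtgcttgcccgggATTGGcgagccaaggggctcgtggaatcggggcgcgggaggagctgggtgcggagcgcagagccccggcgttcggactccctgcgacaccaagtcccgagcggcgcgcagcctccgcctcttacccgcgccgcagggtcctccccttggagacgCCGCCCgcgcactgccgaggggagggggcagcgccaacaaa
It held 1 ATTGG and 1 CCGCCC, capitalised, and no TATAA.

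Col4a5 (chromosome X, 141475385 to 141689234), a chain of the more specialised type IV networks, had 46.7, 41.8 and 46.2 CPM in HFHS-Fe hearts and 32.8 and 24.9 CPM in chow-Fe hearts. Every HFHS-Fe library was higher, by 1.56-fold on average (log2 fold change 0.64, SE 0.113, adjusted p = 0.000493). The adjusted p was at most 0.00588 over the alternatives. The partner chains of Col4a5 trimers did not pass the test. Col4a3 had 4.37, 3.37 and 4.26 CPM in HFHS-Fe hearts and 4.82 and 3.33 CPM in chow-Fe hearts (log2 fold change -0.02, adjusted p = 0.948), with log2 fold changes of 0.27 without chow-Fe replicate 1 and 0.08 without HFHS-Fe replicate 2. Col4a4 had 11.4, 10.9 and 11.6 CPM in HFHS-Fe hearts and 13.2 and 10.9 CPM in chow-Fe hearts (log2 fold change -0.09, adjusted p = 0.612). Without chow-Fe replicate 1 that value was 0.05. Col4a6, which lies head to head with Col4a5 at a distance of 1308 bases, had 1.65 to 2.37 CPM in HFHS-Fe hearts and 1.28 and 2.00 CPM in chow-Fe hearts (log2 fold change 0.35, adjusted p = 0.432). Per kilobase of exon the ratio of Col4a5 to Col4a4 was 6.45, 6.05 and 6.31 in HFHS-Fe libraries, against 3.93 and 3.59 in chow-Fe libraries. The Col4a5 promoter (chrX:141475169-141475468, GRCm38.p6, plus strand) is given for the type IV chain whose rise passed every alternative.
Col4a5 promoter: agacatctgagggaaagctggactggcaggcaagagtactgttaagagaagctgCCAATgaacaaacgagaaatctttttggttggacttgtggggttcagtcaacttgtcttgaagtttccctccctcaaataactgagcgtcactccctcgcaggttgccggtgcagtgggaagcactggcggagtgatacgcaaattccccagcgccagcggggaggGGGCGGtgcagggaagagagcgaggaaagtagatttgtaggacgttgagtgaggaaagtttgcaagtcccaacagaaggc
It held 1 CCAAT, 1 GGGCGG and no TATAA.

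Among the type VI chains, Col6a6 rose in HFHS-Fe hearts, and the 3 chains of the common trimer did not pass. Col6a1 had 75.3, 66.8 and 70.3 CPM in HFHS-Fe hearts and 77.4 and 80.7 CPM in chow-Fe hearts (log2 fold change -0.16, adjusted p = 0.132). Col6a2 had 65.7, 64.9 and 68.4 CPM in HFHS-Fe hearts and 70.4 and 69.3 CPM in chow-Fe hearts (log2 fold change -0.08, adjusted p = 0.465). Col6a3, the large alpha 3 chain, pointed the other way, with 45.0, 42.3 and 40.1 CPM in HFHS-Fe hearts and 31.6 and 39.4 CPM in chow-Fe hearts (log2 fold change 0.26, adjusted p = 0.0616). None of the 3 genes overlapped between the groups, which also held for 58.5% of all tested genes. For Col6a3 the nearest libraries were 40.1 CPM in HFHS-Fe and 39.4 CPM in chow-Fe hearts. Without chow-Fe replicate 2, Col6a3 passed (adjusted p = 0.00684), without chow-Fe replicate 1 its log2 fold change was 0.11 (adjusted p = 0.490), and with the length and GC correction its log2 fold change was -0.07. Col6a3 relative to Col6a1, per kilobase of exon, was 0.219, 0.232 and 0.209 in HFHS-Fe libraries, against 0.149 and 0.179 in chow-Fe libraries. The exons of Col6a3 span 11963 bases and those of Col6a1 4380. With the length and GC correction the log2 fold changes were closer, at -0.07 for Col6a3 and -0.19 for Col6a1.

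Col6a6 (chromosome 9, 105687809 to 105828160) encodes a chain that can stand in place of alpha 3. It had 12.6, 13.5 and 11.6 CPM in HFHS-Fe hearts and 9.31 and 9.72 CPM in chow-Fe hearts, 1.32-fold higher without overlap (log2 fold change 0.40, SE 0.13, adjusted p = 0.0263). The call was lost when HFHS-Fe replicate 1 or 2 or either chow-Fe library was left out (0.0578 to 0.108), with DESeq2 (0.0743) and with the length and GC correction (0.434). Its neighbour Col6a5, a related chain, was not tested: it had 7, 5 and 4 counts in HFHS-Fe libraries and 0 and 0 in chow-Fe libraries. Its mean in HFHS-Fe hearts was 2.02-fold the limit of 3 counts per chow-Fe library. That figure leaves out the counting error of the HFHS-Fe counts and is no lower bound.

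Of the 13 other collagens tested, 0 passed edgeR's test, 1 was lower and 1 higher at an unadjusted p under 0.05, and DESeq2 called 0. Col15a1, a multiplexin of the basement membrane zone, was the most abundant, with 110.4, 97.2 and 93.1 CPM in HFHS-Fe hearts and 94.96 and 88.8 CPM in chow-Fe hearts (log2 fold change 0.13, adjusted p = 0.268). Col18a1, the multiplexin whose end fragment is endostatin, had 7.57 to 8.33 CPM in HFHS-Fe hearts and 7.09 and 7.61 CPM in chow-Fe hearts (log2 fold change 0.13, adjusted p = 0.518). Col8a1, a short-chain collagen of vessels, had 26.1, 27.0 and 26.3 CPM in HFHS-Fe hearts, between the 34.5 and 23.6 CPM of the chow-Fe hearts (log2 fold change -0.13, adjusted p = 0.457). It was lower without chow-Fe replicate 2 (adjusted p = 0.0144) and had a log2 fold change of 0.17 without chow-Fe replicate 1.

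The FACIT collagens were low. Col14a1, which binds fibril surfaces, had 10.8, 6.75 and 8.51 CPM in HFHS-Fe hearts and 10.2 and 13.2 CPM in chow-Fe hearts (log2 fold change -0.42, SE 0.181, adjusted p = 0.0827). HFHS-Fe replicate 1 overlapped the chow-Fe libraries, and without it the adjusted p was 0.0272. It was 0.0355 without chow-Fe replicate 1, but 0.283 without HFHS-Fe replicate 2, 0.167 without HFHS-Fe replicate 3 and 0.442 without chow-Fe replicate 2, where the log2 fold change was -0.23. Col16a1, Col20a1 and Col12a1 had 7.82 to 9.37, 1.36 to 2.00 and 0.790 to 1.499 CPM in HFHS-Fe hearts. In chow-Fe hearts the same genes had 7.44 and 8.50, 1.06 and 1.46, and 0.667 and 1.19 CPM. Their log2 fold changes were 0.11, 0.50 and 0.34 (adjusted p = 0.606, 0.278 and 0.570), and all overlapped.

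Of the transmembrane collagens, Col23a1 had 2.81, 2.80 and 2.5003 CPM in HFHS-Fe hearts and 1.57 and 1.72 CPM in chow-Fe hearts, from 29 to 45 counts a library. The groups did not overlap, but the adjusted p was 0.0555 (log2 fold change 0.71, SE 0.276). Col13a1 had 0.687, 1.51 and 0.878 CPM in HFHS-Fe hearts and 2.38 and 0.944 CPM in chow-Fe hearts (log2 fold change -0.72, adjusted p = 0.232), a difference that was 0.10 without chow-Fe replicate 1 and passed without chow-Fe replicate 2 (adjusted p = 0.0483). Col7a1, the anchoring fibril of skin, had 0.562, 1.44 and 2.09 CPM in HFHS-Fe hearts and 0.541 and 0.778 CPM in chow-Fe hearts (log2 fold change 1.03, SE 0.518, adjusted p = 0.135). Its adjusted p was 0.0275 without HFHS-Fe replicate 1, the lowest of the 3, and 0.452 without HFHS-Fe replicate 3, the highest, where the log2 fold change was 0.57. Col28a1, grouped with Col7a1 among the anchoring or unclassed genes, had 0.676 to 1.65 CPM in HFHS-Fe hearts and 0.389 and 0.920 CPM in chow-Fe hearts (log2 fold change 0.77, adjusted p = 0.255). Col22a1 and Col25a1 were tested but averaged under 1 CPM in both groups, with log2 fold changes of 0.63 and 0.10 and 8 to 16 counts a library.

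These classes also took different shares of the collagen counts. Fibrillar genes made up 27.3%, 27.2% and 26.8% of them in HFHS-Fe libraries, against 33.0% and 33.0% in chow-Fe libraries. Type IV genes made up 47.5%, 47.0% and 48.1% in HFHS-Fe libraries, against 43.5% and 42.5% in chow-Fe libraries. Neither class overlapped between the groups, but these shares sum to the whole and are not independent. As a percent of all counts, type IV genes took 0.0685%, 0.0614% and 0.0653% in HFHS-Fe libraries and 0.0682% and 0.0627% in chow-Fe libraries, which overlap. Fibrillar genes took 0.0393%, 0.0355% and 0.0364% of all counts in HFHS-Fe libraries and 0.0517% and 0.0488% in chow-Fe libraries, without overlap. Type VI shares of the collagen counts overlapped, at 13.4% to 14.0% in HFHS-Fe libraries and 12.5% and 14.0% in chow-Fe libraries. Other collagens took 11.3% to 11.9% in HFHS-Fe libraries and 10.5% and 11.02% in chow-Fe libraries, which did not overlap either. Col4a1 alone took 24.1% to 25.0% in HFHS-Fe and 25.0% and 25.2% in chow-Fe libraries, while Col3a1 took 9.51% to 10.9% in HFHS-Fe and 12.8% and 14.8% in chow-Fe libraries.

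**Figure D3:**
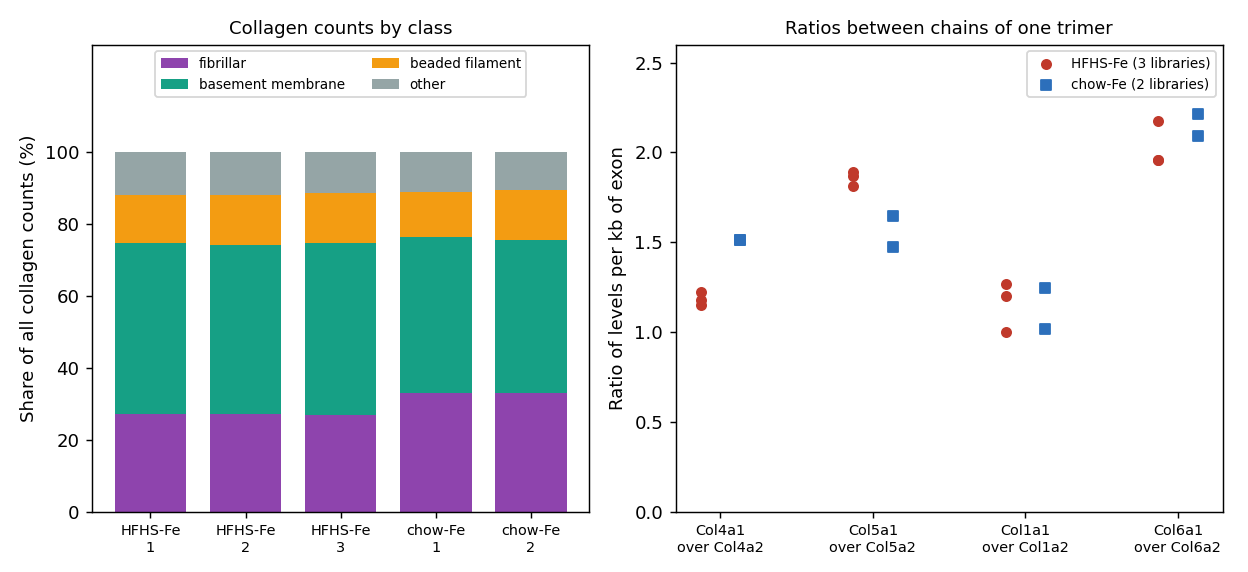
Left, stacked bars of the percent of collagen counts taken by each class, 1 bar per library; right, ratios between chains of a trimer (CPM per kilobase of exon), 1 point per library. Fibrillar shares lie at 26.8% to 27.3% in HFHS-Fe and 33.0% in chow-Fe libraries, and the Col4a1 to Col4a2 ratio at 1.15 to 1.22 in HFHS-Fe and 1.51 in chow-Fe libraries.

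On a per-length scale, Col4a1 led with 46.5 CPM per kilobase of exon in HFHS-Fe hearts and 49.3 in chow-Fe hearts, followed by Col4a2 with 39.2 in HFHS-Fe and 32.6 in chow-Fe hearts. Col3a1 (14.5 in HFHS-Fe, 20.7 in chow-Fe), Col6a1 (16.2 in HFHS-Fe, 18.0 in chow-Fe) and Col15a1 (15.8 in HFHS-Fe, 14.5 in chow-Fe) came next, and their ranges over the 5 libraries overlapped. Col1a1 (7.86 in HFHS-Fe, 9.55 in chow-Fe), Col1a2 (6.82 in HFHS-Fe, 8.47 in chow-Fe) and Col6a2 (7.97 in HFHS-Fe, 8.39 in chow-Fe) formed the next group and also overlapped. The order depends on the length used. With the principal transcript in place of all annotated exons, a choice made after seeing the data, Col1a2 had 15.9 CPM per kilobase in HFHS-Fe and 19.7 in chow-Fe hearts, Col3a1 had 25.6 in HFHS-Fe and 36.5 in chow-Fe hearts, and Col6a2 had 16.8 in HFHS-Fe and 17.7 in chow-Fe hearts. Col3a1 then stood second in chow-Fe hearts, above Col4a2.

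Gene length moved with the comparison across the genome. Over 10 bins of tested genes by exon length, the median log2 fold change ran from -0.47 in the shortest to 0.32 in the longest bin (Spearman's rho 0.43 across genes, which are not independent replicates). Collagens are long genes: the median exon length was 7464 bases for the 31 tested collagens and 4009 for all tested genes, and 18 of the 31 lay in the 2 longest bins. With offsets that remove each library's trend on length and GC content, rho was 0.04, and 14.9% of all genes were lower and 15.8% higher. Then 10 of 31 collagens were lower and 2 higher, with a median of -0.17, against -0.01 for all genes. All 5 genes called lower without offsets were among the 10, and Col5a1 (log2 fold change -0.24, adjusted p = 0.0449), Col4a1 (-0.28, 0.0185), Col4a4 (-0.39, 0.0334), Col6a2 (-0.30, 0.00595) and Col14a1 (-0.60, 0.0208) were added. Col27a1 (0.86, adjusted p = 0.00235) and Col4a5 (0.47, adjusted p = 0.00588) stayed higher, and Col4a2 and Col6a6 lost their calls. The falls of the main fibrillar genes were larger with offsets, at -0.79 for Col3a1 (adjusted p = 6.41e-05), -0.62 for Col1a2 (4.39e-05), -0.43 for Col1a1 (0.00271), -0.52 for Col5a2 (0.000583) and -0.65 for Col5a3 (0.00289). By class, 6 of 8 fibrillar collagens were lower with offsets, 2 of 6 type IV, 1 of 4 type VI and 1 of 13 others. The offsets used the length of all annotated exons, which exceeds the principal transcript by far for some collagens. It was 12426 against 5348 bases for Col1a2, 9816 against 5564 for Col3a1 and 8326 against 3949 for Col6a2, but 4380 against 4100 for Col6a1. Offsets on the principal transcript were not run, so the corrected fold changes and added calls depend on the length used. The source of the length trend was not tested.

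**Figure D4:**
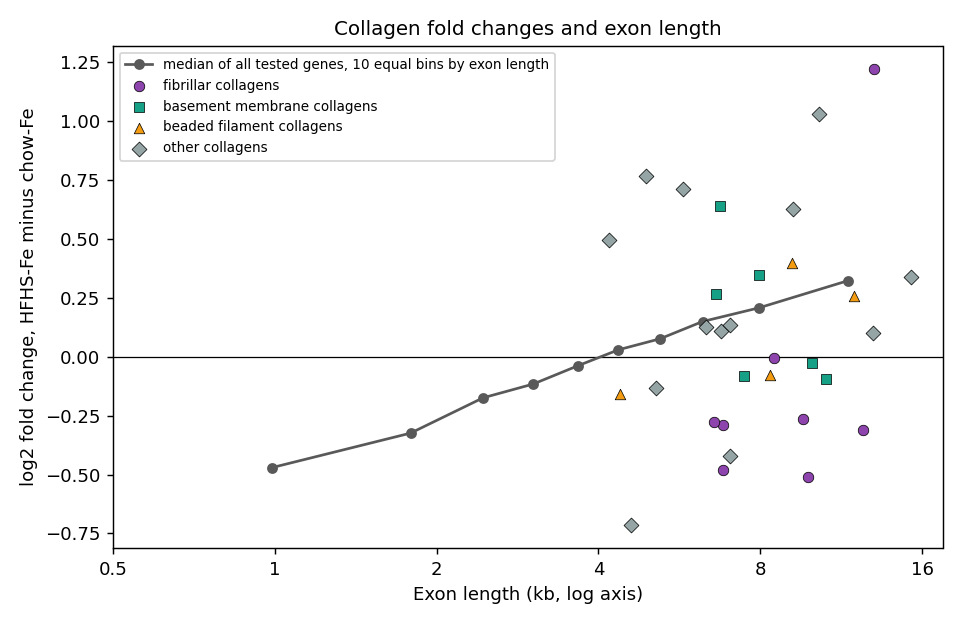
Log2 fold change (HFHS-Fe minus chow-Fe) against exon length on a log axis, with the median of each of 10 length bins of all tested genes as a line and the 31 tested collagens as points. The bin medians run from -0.47 to 0.32, 7 of the 8 fibrillar collagens lie below the line, and Col27a1 is the highest point.

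The genes that make, break down, sense and induce collagen changed in both directions: of 59 listed, 55 were tested, 13 fell and 10 rose. That is 41.8% of those tested, near the 38.1% of all genes. In the list of collagen making (30 tested) 7 fell and 7 rose, with a median log2 fold change of 0.06. Pcolce, the enhancer of the proteinase that trims the end of fibrillar procollagens, had 27.0, 28.6 and 27.2 CPM in HFHS-Fe hearts and 45.4 and 45.4 CPM in chow-Fe hearts, without overlap (log2 fold change -0.72, adjusted p = 1.8e-05). Ppib, a prolyl isomerase of the endoplasmic reticulum, had 24.8, 28.6 and 26.02 CPM in HFHS-Fe hearts and 40.4 and 38.4 CPM in chow-Fe hearts (log2 fold change -0.58, adjusted p = 0.000254). Serpinh1, the collagen chaperone HSP47, named outside the rule after its values were seen, had 136.0, 127.7 and 163.3 CPM in HFHS-Fe hearts and 169.9 and 228.9 CPM in chow-Fe hearts (log2 fold change -0.49, adjusted p = 0.00506). Its adjusted p was 0.078 without chow-Fe replicate 2 and 0.0650 with DESeq2, and with the length and GC offsets its log2 fold change was -0.32 (adjusted p = 0.048). Mia2 and Mia3, partners in loading procollagen at exit sites of the endoplasmic reticulum, rose by 0.58 (adjusted p = 4.31e-05) and 0.43 (adjusted p = 0.000745) on the log2 scale. Mia2 had 84.8 to 88.5 CPM in HFHS-Fe hearts and 57.0 and 58.7 CPM in chow-Fe hearts.

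Among the genes of collagen breakdown, 2 of 7 fell and 0 rose in edgeR's test, 28.6% of the list against 38.1% of all genes. At an unadjusted p under 0.05, 3 were lower and 0 higher, and DESeq2 called 1 lower and 0 higher. Mmp2, a gelatinase, had 49.8, 45.8 and 43.0 CPM in HFHS-Fe hearts and 64.3 and 59.3 CPM in chow-Fe hearts (log2 fold change -0.42, adjusted p = 0.00166). Mmp14, the membrane protease that activates it, had 12.6, 12.6 and 9.19 CPM in HFHS-Fe hearts and 13.7 and 17.9 CPM in chow-Fe hearts (log2 fold change -0.46, adjusted p = 0.0319, but 0.117 without HFHS-Fe replicate 3, 0.299 without chow-Fe replicate 2 and 0.0546 with DESeq2). Of 7 tested receptors, Lair1, an inhibitory collagen receptor of leukocytes, fell (1.31 to 2.16 CPM in HFHS-Fe hearts, 3.30 and 3.61 CPM in chow-Fe hearts, adjusted p = 0.0172, but 0.069 without HFHS-Fe replicate 1 and 0.0762 without chow-Fe replicate 2). Ddr1, a receptor kinase for collagen, rose (12.2 to 16.1 CPM in HFHS-Fe hearts, 9.42 and 10.8 CPM in chow-Fe hearts, adjusted p = 0.0158, but 0.0842 without HFHS-Fe replicate 2 and 0.106 without chow-Fe replicate 1). Itgb1, the shared beta chain of collagen-binding integrins, also rose (421.1 to 429.5 CPM in HFHS-Fe hearts, 372.6 and 374.5 CPM in chow-Fe hearts, adjusted p = 0.0357), a call lost when HFHS-Fe replicate 1 or 2 or either chow-Fe library was left out (0.0665 to 0.118) and without the filter on low counts (0.0651).

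Of 11 inducers, 3 fell and 1 rose, 36.4% of the list and near the share of all genes. Tgfb1 had 17.2, 18.4 and 16.7 CPM in HFHS-Fe hearts and 24.6 and 25.3 CPM in chow-Fe hearts, and fell (log2 fold change -0.52, adjusted p = 0.001). Tgfb2, a related growth factor, had 16.6, 16.7 and 14.6 CPM in HFHS-Fe hearts and 11.4 and 10.4 CPM in chow-Fe hearts, and rose (log2 fold change 0.54, adjusted p = 0.00291). Neither gene overlapped between the groups. Pdgfb fell (log2 fold change -0.42, adjusted p = 0.00917, but 0.0909 without chow-Fe replicate 2), as did Scx, a transcription factor of tendon and fibroblasts, at 1.31 to 1.89 CPM in HFHS-Fe hearts and 2.61 and 3.79 CPM in chow-Fe hearts (adjusted p = 0.02, but 0.0777 without HFHS-Fe replicate 1, 0.211 without chow-Fe replicate 1 and 0.134 with the length and GC offsets).

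Markers of the cells that make collagen moved as well. Of 10 fibroblast markers 9 fell (median log2 fold change -0.63), and their summed level was 1529 to 1570 CPM in HFHS-Fe hearts and 2269 to 2296 CPM in chow-Fe hearts, with none of the markers at 0. Like the other list sums, this one is on total counts, without the TMM factors. The called share was 90.0%, against 38.1% of all tested genes. DESeq2 called 7 fibroblast markers lower, and with the length and GC offsets 7 were lower (median -0.47). The summed fibrillar collagens divided by these markers came to 0.257, 0.228 and 0.232 in HFHS-Fe libraries and 0.225 and 0.215 in chow-Fe libraries, slightly higher in HFHS-Fe hearts. This ratio was not corrected for the length trend. The median exon length was 9040.5 bases for the tested fibrillar collagens and 2692.5 for the fibroblast markers. With the offsets their median log2 fold changes were -0.51 and -0.47. Col1a1, Col1a2 and Col3a1 over the single fibroblast marker Pdgfra came to 6.92, 5.95 and 6.82 in HFHS-Fe libraries and 8.22 and 6.49 in chow-Fe libraries, which overlap with a lower HFHS-Fe mean. Of 10 endothelial markers 8 fell (median -0.46), summing to 1290 to 1317 CPM in HFHS-Fe hearts and 2134 to 2342 CPM in chow-Fe hearts. That is 80.0% of the endothelial list, with 8 lower in DESeq2 and 9 lower with the offsets. Col4a1 and Col4a2 over the endothelial gene Pecam1 came to 3.95, 3.75 and 3.88 in HFHS-Fe libraries and 2.88 and 2.89 in chow-Fe libraries, higher without overlap. That ratio was not corrected for the length trend either. Of 8 mural markers 3 fell and 2 rose, with sums of 1280 to 1341 CPM in HFHS-Fe and 1452 to 1457 CPM in chow-Fe hearts. Of 6 cardiomyocyte markers 3 fell and 2 rose, with sums of 49455 to 51360 CPM in HFHS-Fe and 46251 to 51080 CPM in chow-Fe hearts, and all 6 were detected. The cardiomyocyte sums overlap on total counts, and their overlap with the TMM factors was not tested. The called shares were 62.5% for the mural and 83.3% for the cardiomyocyte list, again against 38.1% of all tested genes. The part that the fibroblast and endothelial levels have in the collagen differences was not tested.

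Of 5 tested Schwann and nerve markers 0 passed edgeR's test (1 at an unadjusted p under 0.05, 0 with DESeq2). On total counts, without the TMM factors, they summed to 18.4 to 19.3 CPM in HFHS-Fe hearts and 17.5 to 18.8 CPM in chow-Fe hearts. Epithelial markers stayed below 1 CPM on that scale, with Epcam and Krt5 at 0. Of 4 tested mesothelial markers edgeR called Msln, Lrrn4 and Upk3b higher, with sums over the list of 9.26 to 12.7 CPM in HFHS-Fe hearts and 7.09 to 9.23 CPM in chow-Fe hearts. Those calls were 75.0% of the 4 tested, against 38.1% of all tested genes, and DESeq2 called 0 of the list. The shares cannot be compared, because Msln and Lrrn4 had no chow-Fe counts and could only be called higher. Msln and Lrrn4, markers of the lining of the heart's surface, had 21 to 23 and 8 to 21 counts in HFHS-Fe libraries and 0 counts in both chow-Fe libraries, so they entered the test only through the HFHS-Fe group. DESeq2 gave neither of them an adjusted p, and gave Upk3b 0.088. The part of this lining in the levels of Col27a1, Col6a5 or other collagens was not tested.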

How the data were processed

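RNA from 5 whole hearts was sequenced after selection for polyadenylated transcripts, per the labels' protocols, and the authors deposited 1 table of raw counts per gene for each library. The submitters' processing notes name STAR 2.5.2b, Trimmomatic 0.36, Subread 1.5.2 with its featureCounts, and the build GRCm38. How strands and multimapping reads were treated, and with which annotation, is not given in the sources used here. Counts shared by near-identical or antisense genes could therefore be lost or added. Symbols, coordinates and transcripts came from GENCODE M21, which held 49056 of the 49315 gene identifiers, 91.4% of them (43 of 44 collagens) at the same coordinates. Promoters came from RefSeq (GRCm38.p6), matched by symbol for 35 collagens.

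Libraries were grouped by their titles. The deposited counts were filtered with filterByExpr, TMM-scaled and tested over all genes with edgeR 4.0.16 (quasi-likelihood test, Benjamini-Hochberg adjustment over 14221 genes, R 4.3.3). SEs are approximate, the log2 fold change divided by the root of F. No pair of libraries agreed within sampling noise. Alternatives were DESeq2 1.42.0, its size factors, no filter on low counts, leaving out each library, a replicate block, and offsets that take out each library's trend with exon length and transcript GC (smoothed by mgcv 1.9.3; GC known for 99.8% of tested genes). The main edgeR fit was tested on simulated counts without a length trend. The alternatives were not tested in this way. Collagens with at least 1 CPM in a group are named with values, and up to 4 genes of smallest p from each other list. The members and lists were chosen with earlier results of these data known.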

Additional observations from a re-analysis of the deposited data

How the results depend on the processing

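Over all genes 5417 were called, and 4248 to 4929 when a library was left out, 4381 with DESeq2 and 4376 with length and GC offsets. Of the collagens 9 were called, and 5 to 8 with a library left out (2 to 5 lower, 3 to 4 higher): the fewest came without HFHS-Fe replicate 2. By class those leave-one-out counts were 2 to 4 fibrillar lower and 1 higher, 1 to 2 type IV higher, 0 to 1 type VI higher, and 0 to 2 others lower and 0 to 1 higher; of the genes of collagen making, breakdown, sensing and induction, 17 to 21 were called (6 to 10 higher), against 23 with all libraries. DESeq2 called 3 collagens lower, all 3 fibrillar, and 0 type VI chains higher. Without the filter on low counts 2 type VI chains, Col6a6 and Col6a5, were higher and 1 other collagen lower. Col6a5, with 0 counts in both chow-Fe libraries, was counted there only through its 7, 5 and 4 counts in HFHS-Fe libraries. With the offsets, collagens lower were 10 and higher 2, which made 2 type IV chains lower and 1 higher, 1 type VI chain lower and 0 higher, and 1 other collagen lower. Scaling by DESeq2's size factors moved no collagen count.

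The replicate numbers were not taken to pair the libraries: only numbers 1 and 2 occur in both groups. The correlation of same-numbered libraries' deviations was 0.035 and 0.026. The deviations of the 2 chow-Fe libraries mirror each other, so these values cannot show whether the libraries were paired. With the replicate block 5332 genes, 4 collagens lower and 5 higher were called, the higher ones with 2 type VI chains among them. With the replicate block and offsets together there were 9 collagens lower and 2 higher (type IV 2 lower and 1 higher, type VI 1 lower and 0 higher, others 1 lower).

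Only collagens that had not passed changed sign. With the offsets the log2 fold change was -0.047 for Col12a1, -0.021 for Col15a1, -0.071 for Col16a1, -0.053 for Col18a1 and -0.069 for Col6a3, and with the block added -0.092 for Col12a1, -0.035 for Col16a1 and -0.017 for Col6a3. With a library left out, it ran from -0.57 to 0.053 for Col11a2, -0.016 to 0.81 for Col12a1, -1.23 to 0.10 for Col13a1, -0.26 to 0.27 for Col4a3, -0.22 to 0.048 for Col4a4, -0.045 to 0.033 for Col5a1 and -0.38 to 0.17 for Col8a1. The causes were not tested, except that leaving out a library leaves fewer samples. Where a chow-Fe library was left out, the remaining one is assumed to vary like the HFHS-Fe libraries.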
